A study of Homo sapiens with 6 samples.

Results

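The clustered protocadherins are the 53 protein-coding genes of chromosome 5 whose RefSeq symbols begin with PCDHA, PCDHB or PCDHG. They were chosen by symbol from the 20046 protein-coding genes of the GRCh38.p14 table. This rule uses no measured value, but earlier results of these data were known when the family was chosen. The alpha cluster holds 15 of them, the beta cluster 16 and the gamma cluster 22. Their R-loops were mapped by DRIP-seq, in which the S9.6 antibody pulls down DNA paired with RNA. The cells were SH-SY5Y, a human neuroblastoma line, stably carrying a lentiviral short hairpin. They were selected with puromycin at 2 µg/mL for 2 weeks and then kept in 1 µg/mL. The 3 shT2 samples and 3 shNC3 samples differ in the hairpin alone as far as the labels go. The series concerns TDP-43, an RNA-binding protein, and from the names shT2 is read as its knockdown and shNC3 as the negative control; the labels do not spell this out. Each sample is represented by its own list of called peaks. Nothing in the labels says that samples of a hairpin came from separate infections or cultures, so p-values reflect the spread among these libraries alone, which may be of technical origin. Peak lists do not measure expression, and the identity of the cells was not checked from them.

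Clustered protocadherins are adhesion proteins of the cadherin superfamily on the surface of neurons. Each alpha and gamma gene begins with its own promoter and variable exon, which is spliced to constant exons shared by the whole cluster, whereas the beta genes have no such shared exons. An individual neuron uses only some of the promoters, a choice linked to DNA methylation, to the insulator protein CTCF and to the cohesin ring, while the C-type genes at the ends of the alpha and gamma clusters are used more widely. An R-loop is an RNA strand paired with its DNA template, and R-loops often form at transcribed, GC-rich gene starts and at gene ends.

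All 53 genes lie on the plus strand in an order from alpha through beta to gamma, and their RefSeq promoter windows were read first because the alternative promoters are what sets the genes apart. A window runs from 250 bases before to 50 bases after the gene start, and 47 of the 53 members had an entry; those without were PCDHA3, PCDHA13, PCDHB6, PCDHB11, PCDHGA12 and PCDHGC5. The windows of 4 members are printed 5′ to 3′ on the plus strand of GRCh38.p14. Every CGCT and its reverse complement AGCG is in capitals, since CGCT is the core of a conserved element of most, not all, of these promoters. PCDHA1 (chr5:140785890-140786189) is the first gene of the alpha cluster, PCDHAC2 (chr5:140966226-140966525) its last, PCDHB3 (chr5:141100223-141100522) the start that differed most between the hairpins, and PCDHGC3 (chr5:141475716-141476015) the start with the longest coverage.
PCDHA1: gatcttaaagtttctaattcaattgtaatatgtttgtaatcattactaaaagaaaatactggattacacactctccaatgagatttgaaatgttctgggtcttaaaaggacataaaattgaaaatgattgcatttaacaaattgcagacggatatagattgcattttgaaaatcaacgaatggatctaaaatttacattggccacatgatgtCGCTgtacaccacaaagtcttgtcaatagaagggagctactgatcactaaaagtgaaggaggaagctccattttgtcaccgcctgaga
PCDHAC2: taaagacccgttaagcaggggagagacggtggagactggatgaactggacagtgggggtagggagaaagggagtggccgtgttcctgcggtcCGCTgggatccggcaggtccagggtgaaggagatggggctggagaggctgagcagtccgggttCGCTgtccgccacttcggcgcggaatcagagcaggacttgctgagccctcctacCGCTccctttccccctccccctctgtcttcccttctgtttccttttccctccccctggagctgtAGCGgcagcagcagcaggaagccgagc
PCDHB3: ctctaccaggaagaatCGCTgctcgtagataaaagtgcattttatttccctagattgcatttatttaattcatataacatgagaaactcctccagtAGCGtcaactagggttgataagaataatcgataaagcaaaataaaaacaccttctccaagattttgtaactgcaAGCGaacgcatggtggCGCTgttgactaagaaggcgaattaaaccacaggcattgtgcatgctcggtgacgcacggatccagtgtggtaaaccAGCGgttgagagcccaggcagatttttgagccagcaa
PCDHGC3: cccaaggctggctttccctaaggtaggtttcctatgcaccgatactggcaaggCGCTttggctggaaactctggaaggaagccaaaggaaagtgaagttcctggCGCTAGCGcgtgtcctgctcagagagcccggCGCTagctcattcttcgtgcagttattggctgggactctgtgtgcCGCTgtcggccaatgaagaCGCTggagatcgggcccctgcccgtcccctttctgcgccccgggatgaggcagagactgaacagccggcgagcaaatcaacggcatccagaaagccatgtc
The letters CGCT or AGCG occur 1 time in the PCDHA1 window, 4 times in that of PCDHAC2, 5 times in that of PCDHB3 and 6 times in that of PCDHGC3, where matches may adjoin or overlap. So short a match need not mark a copy of the element. GC content was 34.0% for PCDHA1 and 43.0% for PCDHB3, but 63.0% for PCDHAC2 and 59.0% for PCDHGC3.

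These 4 windows show the range within the family. Over the 47 members the median GC content was 39.7%, against 62.7% over 15842 protein-coding promoters of the same length. By cluster it was 37.3% for alpha, 40.9% for beta and 42.0% for gamma, whereas the C-type promoters (4 with an entry) had a median of 61.9%. CGCT, on either strand, was present in 46 of 47 member windows (97.9%) and in 81.0% of all promoters. GGGG, counted on both strands, was present in 48.9% of member windows and 93.6% of all promoters. TATAA, counted on both strands, was present in 36.2% of member windows and 16.9% of all promoters. The windows were thus poorer in GC and in runs of G than the usual promoter, and the C-type windows were the exception. A match of letters is a description and not a bound site.

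The peak lists of the 6 samples held 42717 to 50971 peaks covering 62.9 to 78.2 Mb. Library depth recovered from the peak values ranged from 3.08 to 3.46 fragments per base for shT2 and from 1.65 to 1.79 for shNC3, so the hairpins differ in depth as well. The shallowest peaks called had 12 to 13 fragments at the summit in shT2 and 8 in every shNC3 list. A peak list gives no level below that calling threshold, so a value of 0 bp means that no peak was called. Covered length, the number of bases under called peaks, was therefore the quantity compared, in raw base pairs for each sample and, for means and tests, scaled to an equal total per sample. Whether the difference in depth contributes to a difference in covered length was not tested beyond an equal-depth filter, which keeps the peaks the shallowest library could have called.

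Called R-loops were sparse along the alpha and beta clusters and concentrated at the far end of the gamma cluster. In the alpha cluster (230.2 kb with 2 kb on each side), shT2 replicates 1, 2 and 3 had 0, 1690 and 644 bp under peaks, and shNC3 replicates 1, 2 and 3 had 460, 0 and 0 bp. Both groups included samples with no peak, and the ranges overlapped. In the beta cluster (202.0 kb), shT2 replicates had 1809, 3507 and 1649 bp and shNC3 replicates 778, 0 and 435 bp, without overlap. In the gamma cluster (186.5 kb), shT2 replicates had 16161, 15430 and 13381 bp and shNC3 replicates 11600, 8218 and 8414 bp, again without overlap. For gamma the scaled mean was 14.2 ± 1.3 kb with shT2 and 9.91 ± 1.6 kb with shNC3 (SD, n = 3 each), a difference of 4.31 kb and a ratio of 1.44 (two-sided exact permutation p = 0.1). For beta the means were 2.18 ± 0.87 and 0.412 ± 0.39 kb (SD, n = 3 each; exact permutation p = 0.1). For alpha they were 0.721 ± 0.77 and 0.154 ± 0.27 kb (SD, n = 3 each; exact permutation p = 0.4). With 3 samples against 3, the smallest p this test can give is 0.1, so none of the 3 clusters could pass 0.05. With peaks restricted to those the shallowest library could have called, the gamma difference was 4.17 kb, the beta difference 1.34 kb and the alpha difference 0.354 kb. That restriction removes weak peaks but does not narrow the peaks that remain.

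**Figure D1:**
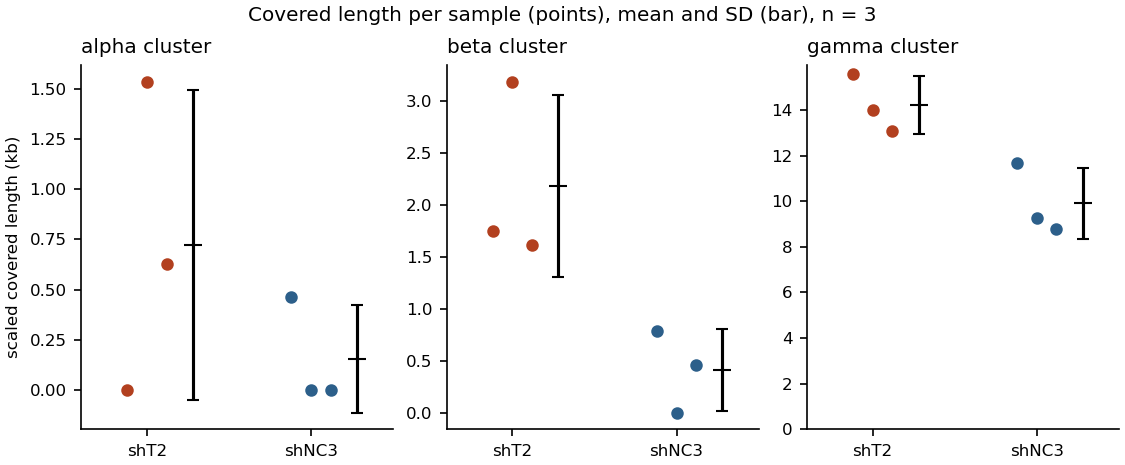
Scaled length under called peaks (kb, vertical axis, a separate scale for each panel) in each of the 3 shT2 and 3 shNC3 samples, shown as points for the alpha, beta and gamma clusters, with a bar for the mean and 1 SD (n = 3). The shT2 points lie above all shNC3 points for beta and gamma, and the groups overlap for alpha.

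**Figure D2:**
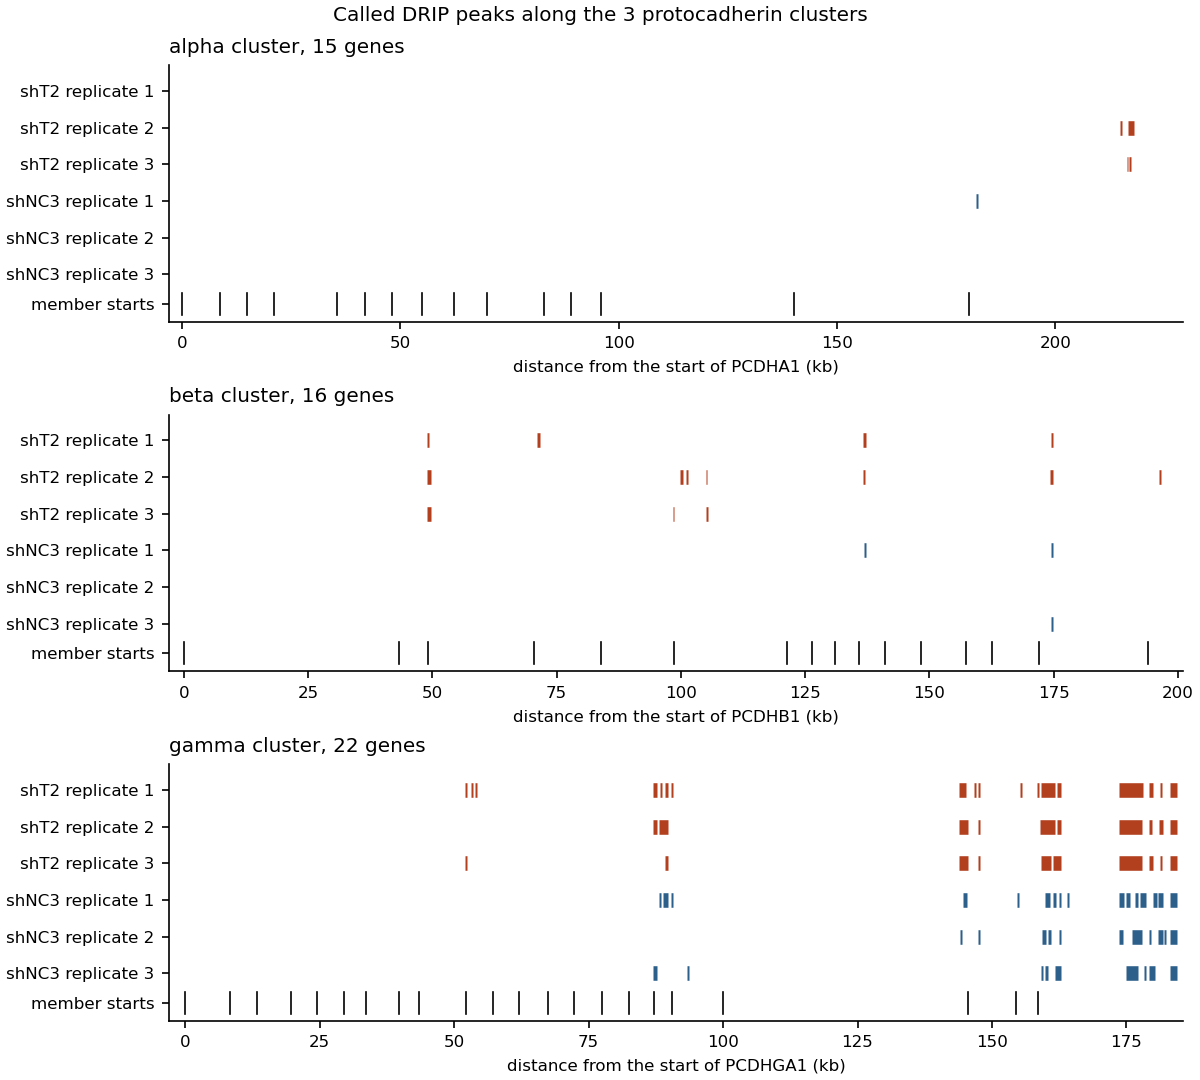
Position of every called peak along the alpha, beta and gamma clusters in each sample, as distance in kb from the start of the first member (horizontal axis); black ticks at the bottom mark the starts of the members, orange bars are shT2 peaks and blue bars shNC3 peaks. Most bars lie at the right-hand end of the gamma cluster, and the stretch over the alpha gene starts has no bar.

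Merging the peaks of all samples gave 33 regions, of which 4 lay in the alpha cluster, 9 in beta and 20 in gamma. Only 4 regions had a peak in all 6 samples, and all of these were in the gamma cluster. A region with a peak in the 3 shT2 samples and in no shNC3 sample occurred 1 time, at PCDHB3, and the opposite pattern occurred 0 times. Over the 75807 merged regions of the genome these patterns made up 5.86% and 2.86%. A further 17 regions were called in 1 sample only. The cluster peaks were of ordinary strength for their lists. Their median fold enrichment over local background, as the authors' peak caller gave it, was 4.64 to 5.22 per sample, where the whole lists had medians of 4.80 to 5.38. The strongest cluster peak of each sample reached the 81.3 to 85.1 percentile of its own list.

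At the start of the alpha genes no peak was called in any sample. The window of 1 kb on each side of the start was free of peaks for 15 of 15 alpha genes, including PCDHAC1 and PCDHAC2, whose promoters have GC contents of 66.0% and 63.0%. The 4 alpha regions all lay beyond the last start. The nearest, at chr5:140967878-140968337, began 1402 bp downstream of the PCDHAC2 start and was called only in shNC3 replicate 1. The other 3 lay 34569 bp or more downstream of that start, were called only in shT2 replicates 2 and 3, and had summit enrichments of 3.34 to 4.67. Because the 15 alpha genes share their end at position 141012347, every one of their spans contains the same peaks and has the same values.

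The beta genes, which do not overlap each other, could be told apart. Of 16, 8 had a peak within the span and its 2 kb flanks in at least 1 sample, and for 6 of these the peaks were in shT2 samples only, as for 6.24% of all genes with a peak. These 6 are not separate observations. PCDHB2 holds bases of the PCDHB3 peak, and PCDHB16 holds the edge of the PCDHB9 peak, which was also called in shNC3 replicate 1. PCDHB4 and PCDHB15 had their peak in 1 sample each. The clearest of the 6 was PCDHB3, a beta protocadherin at chr5:141100473-141103827, whose promoter is printed above. Its peak ran from 141100192 to 141101175, from 281 bp upstream of the start into the gene. PCDHB3 had 406, 984 and 984 bp under this peak in shT2 replicates 1, 2 and 3 and 0 bp in each shNC3 replicate. All 300 bp of the promoter window were covered in each shT2 sample. The summits held 26, 30 and 21 fragments, with enrichments of 6.15, 6.75 and 5.38, at the 67.6, 75.1 and 57.0 percentile of the respective lists. These were mid-range peaks in shT2 with no called counterpart in shNC3.

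PCDHB3 passed the fit over all genes (limma on log2 of scaled bp plus 500, adjusted p = 0.00679) and the fit over all gene starts (limma adjusted p = 0.0121). With 0 bp in each shNC3 replicate, PCDHB3 met the filter of at least 3 covered samples only through shT2. Its p-values therefore add no separate support to that pattern. No fold is given because shNC3 was at 0. With the equal-depth restriction its adjusted p was 0.00699 for the gene and 0.0114 for the start. The call at the start did not hold without shNC3 replicate 1 (limma adjusted p = 0.0512) or without shNC3 replicate 2 (adjusted p = 0.0561). PCDHB2, the next gene upstream, had 406, 512 and 512 bp in shT2 and 0 bp in each shNC3 replicate (limma adjusted p = 0.0114; 0.0588 without shNC3 replicate 3). Its bases lay in its downstream flank and belong to the same PCDHB3 peak, so the calls for PCDHB2 and PCDHB3 are 1 observation. PCDHB2 likewise entered the fit only through its shT2 samples.

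The remaining beta peaks were seen in fewer samples. PCDHB14 had 356, 593 and 0 bp in shT2 and 417, 0 and 435 bp in shNC3, and PCDHB9 had 494, 390 and 0 bp in shT2 and 361, 0 and 0 bp in shNC3. Both were tested, and their groups overlapped (limma adjusted p = 0.999 and 0.487). PCDHB6 had 0, 984 and 288 bp, PCDHB4 had 553, 0 and 0 bp, PCDHB16 had 119, 120 and 0 bp and PCDHB15, the last gene of the cluster, had 0, 275 and 0 bp in shT2, all with 0 bp in shNC3. PCDHB16 takes its bases from the peak of the neighbouring PCDHB9. These 4 genes were covered in fewer than 3 samples and were not tested. PCDHB1, the first gene of the cluster, and 7 others had no peak in any sample.

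In the gamma cluster the 22 genes share their end at position 141512975, so their spans are nested and hold the same downstream peaks. All 22 rose in shT2 in the gene fit, but they carry only 6 distinct sets of values. From PCDHGA1 to PCDHGA7, including PCDHGB1 to PCDHGB3, the values were those of the whole cluster and the log2 difference was 0.51 (SE 0.11, limma adjusted p = 0.00845). From PCDHGB4 to PCDHGB7 the difference was 0.46 (SE 0.11, adjusted p = 0.00995), and for PCDHGA11 it was 0.45 (SE 0.11, adjusted p = 0.0129). PCDHGA12 and PCDHGC3 shared 1 set of values, with 13043, 12970 and 12489 bp in shT2 and 9695, 8218 and 7349 bp in shNC3. Their scaled means were 12.2 ± 0.41 and 8.90 ± 1.1 kb (SD, n = 3 each), and the log2 difference was 0.44 (SE 0.09, limma adjusted p = 0.00616). PCDHGC4, a C-type gene, had 11103, 10778 and 10452 bp in shT2 and 8950, 7545 and 7349 bp in shNC3, a difference of 0.27 (SE 0.08, adjusted p = 0.0191). PCDHGC5, the last C-type gene, had 10814, 10778 and 10452 bp in shT2 and 8601, 7545 and 7349 bp in shNC3, a difference of 0.28 (SE 0.07, adjusted p = 0.0113). The shT2 and shNC3 samples did not overlap in any of the 6 sets. The call for PCDHGC4 did not hold without shT2 replicate 1 (limma adjusted p = 0.0692), shT2 replicate 3 (0.0512) or shNC3 replicate 3 (0.0582).

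Counted over the family, 41 of 53 members were tested, 24 rose in shT2, 0 fell and 17 did not pass. Of all 11782 tested genes, 51.4% were called in either direction, 24.1% higher and 27.3% lower. The 41 tested members hold 11 distinct sets of values, of which 8 were called, and 6 of those 8 are nested gamma spans. The count of genes therefore says little beyond 1 peak at PCDHB3 and the peaks at the gamma end. Groups did not overlap, with shT2 higher, for 24 members and for 27.6% of all tested genes. The median log2 difference over all tested genes was -0.08.

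The gamma signal was not spread over the cluster. From 2 kb before the PCDHGC3 start to the cluster end is 41.0 kb, or 22.0% of the cluster length, and this stretch held 80.7 to 100.0% of the gamma covered length per sample. It covers the 3 C-type genes and the shared end, where the constant exons lie; the gene table used gives no exons. Over this stretch 30.5 to 31.8% of bases were under peaks in shT2 and 17.9 to 23.6% in shNC3. The scaled means were 12.2 ± 0.41 and 8.90 ± 1.1 kb (SD, n = 3 each; exact permutation p = 0.1). In the 145.5 kb upstream, from PCDHGA1 on, shT2 replicates had 3118, 2460 and 892 bp and shNC3 replicates 1905, 0 and 1065 bp, which overlapped (exact permutation p = 0.3). The median share of span and flanks under peaks was 9.44% for the gamma genes, 0.266% for alpha and 0.254% for beta, against 1.48% for all protein-coding genes and 0.534% for the other genes of chromosome 5.

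**Figure D3:**
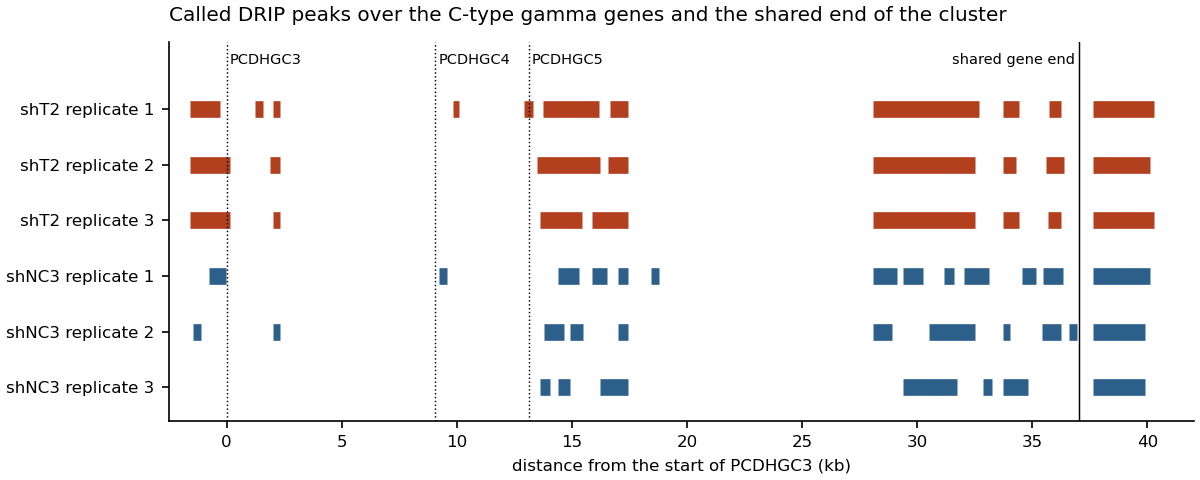
Called peaks over the last part of the gamma cluster in each sample, as distance in kb from the start of PCDHGC3 (horizontal axis); dotted lines mark the starts of PCDHGC3, PCDHGC4 and PCDHGC5, the solid line the end shared by the 22 gamma genes, orange bars are shT2 and blue bars shNC3. In the longest region, before the shared end, each shT2 sample has 1 unbroken peak where the shNC3 samples have shorter ones, and the peak beyond the shared end has nearly the same extent in all 6 samples.

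Along this end the regions differed in how much the hairpins differed. The region at the PCDHGC3 start, chr5:141474366-141476125, runs from -1600 to 159 bp relative to the start and had 1299, 1760 and 1748 bp in shT2 and 745, 346 and 0 bp in shNC3. All shT2 values were above all shNC3 values there. The region chr5:141489432-141493380, from 351 to 4299 bp downstream of the PCDHGC5 start, had 3209, 3605 and 3400 bp in shT2 and 1993, 1814 and 2166 bp in shNC3, or 3230 ± 118 and 2104 ± 136 bp after scaling (SD, n = 3 each). The longest region, chr5:141504045-141509191, lies before the shared end and had 4587, 4416 and 4416 bp in shT2 and 3413, 2817 and 2690 bp in shNC3, or 4249 ± 216 and 3140 ± 316 bp after scaling. Neither of these overlapped between the groups. The share of regions without overlap over the genome was not computed, and 27.6% of tested genes had no overlap with shT2 higher. Region chr5:141509681-141511117 had 726, 591 and 723 bp in shT2 and 594, 306 and 1109 bp in shNC3, and the ranges overlapped. They also overlapped at chr5:141511364-141512344 (522, 782 and 529 bp in shT2, 863, 855 and 0 bp in shNC3). The same held at chr5:141477856-141478287 (288, 432 and 289 bp in shT2, 0, 327 and 0 bp in shNC3). Region chr5:141513592-141516265 begins past the shared end and runs into the span of DIAPH1, the neighbouring gene for a formin that assembles actin. It had 2638, 2502 and 2674 bp in shT2 and 2484, 2277 and 2277 bp in shNC3, or 2476 ± 180 and 2482 ± 99 bp after scaling (SD, n = 3 each). Its raw values did not overlap, with shT2 higher, whereas its scaled means differed by less than either SD.

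Fixed tiles of 5 kb gave the same layout without gene spans. Of 127 tiles over the clusters, 20 held a peak, 12 were tested, 5 rose in shT2 and 0 fell. Over all 40454 tested tiles 37.8% were called, 20.4% higher and 17.4% lower. The tile beginning at 141100001 holds the PCDHB3 peak (limma adjusted p = 0.00822). Like PCDHB3, this tile was tested only through its shT2 samples. The tiles beginning at 141470001 and 141475001 divide the region at the PCDHGC3 start between them. Their log2 differences were 0.86 (SE 0.27, limma adjusted p = 0.0485) and 1.18 (SE 0.35, adjusted p = 0.0424). Both calls share that region and are not separate observations. The tile at 141470001 had 635 bp in each shT2 replicate, from the shared peak start at 141474366 to the tile end, and 0, 346 and 0 bp in shNC3. The spread within shT2 at this tile therefore reflects the scaling alone. The tile at 141490001, over the PCDHGC5 region, had 2906, 3036 and 2989 bp in shT2 and 2347, 1577 and 1740 bp in shNC3, a difference of 0.43 (SE 0.11, adjusted p = 0.0274). The tile at 141505001, over the longest region, had 3951, 3780 and 3780 bp in shT2 and 2457, 2300 and 3010 bp in shNC3, a difference of 0.36 (SE 0.09, adjusted p = 0.0276). The tile at 141510001, which holds the shared end, had 2337, 2462 and 2341 bp in shT2 and 2866, 2633 and 2198 bp in shNC3, a difference of -0.21 (SE 0.10, adjusted p = 0.142). None of the 5 calls was kept in every fit with a sample left out: 0 to 3 tiles were called higher, and 0 without any one of the shT2 replicates. With equal depth the tile at 141475001 lost its call (1.10, limma adjusted p = 0.0643), and with 5-fold peaks its difference was 0.16 (adjusted p = 0.844). The tiles at 141490001 (limma adjusted p = 0.0765) and 141505001 (0.235) did not pass with 5-fold peaks either. With the replicate number as a block, all 4 called gamma tiles lost their calls (limma adjusted p = 0.0503 to 0.0719). The tile at 141510001 passed without shNC3 replicate 3 (-0.31, limma adjusted p = 0.0405).

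At their own starts, few members carried a peak. The window of 1 kb on each side of the start held a peak for 9, 6 and 6 of 53 members in shT2 replicates 1, 2 and 3 and for 4, 1 and 2 members in shNC3 replicates (two-sided exact permutation p = 0.1, the smallest possible). This was 11.3 to 17.0% of the members in shT2 and 1.89 to 7.55% in shNC3. Over the 15848 genes with a known start the share lay between 37.7 and 39.1% with shT2 and between 38.9 and 41.4% with shNC3. No member had a start peak in all 6 samples, as 28.3% of all genes did, and 43 members (81.1%) had none in any sample, as 49.5% of all genes did. Those 43 had a median promoter GC content of 38.3% over the 39 with an entry, and the members with a start peak had 43.6% over 8.

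Of the 10 members with a start peak, 5 had it in shT2 samples only: PCDHB3, PCDHB4, PCDHB6, PCDHB9 and PCDHGA7. PCDHB9 is among them only by the edge of the window, which took in 54 and 55 bp of the peaks of shT2 replicates 1 and 2. The same region had 361 bp under a peak in shNC3 replicate 1, outside the window. Over the 8006 gene starts with a peak in any sample, the share with it in shT2 samples only was 8.16%. Of the 53 starts, 5 were tested and 1, PCDHB3, was called, against 22.5% of 6638 starts called in either direction and 6.63% called higher. PCDHGC3 had 699, 1160 and 1148 bp in its start window in shT2 and 745, 0 and 0 bp in shNC3, and the groups overlapped (log2 difference 1.08, SE 0.40, limma adjusted p = 0.0734). With a window of 2 kb on each side the PCDHGC3 difference was 1.39 (limma adjusted p = 0.0203), and without shNC3 replicate 1 it was 1.52 (adjusted p = 0.0228). With equal depth it was 1.1 and did not pass (limma adjusted p = 0.105). PCDHGC5 had 770, 650 and 492 bp in shT2 and 0, 318 and 437 bp in shNC3, which did not overlap, as with shT2 higher for 11.2% of all tested starts, and did not pass (log2 difference 0.56, SE 0.29, limma adjusted p = 0.162). PCDHGC4 had 241 bp in shT2 replicate 1 and 349 bp in shNC3 replicate 1, and no other sample had a peak there. PCDHGB7 had 696, 777 and 0 bp in shT2 and 81, 0 and 696 bp in shNC3 (limma adjusted p = 0.612). PCDHGA11 had 669, 310 and 310 bp in shT2 and 762, 0 and 0 bp in shNC3 (limma adjusted p = 0.473). PCDHGA7 had 598, 0 and 309 bp in shT2 and 0 bp in each shNC3 replicate. The median log2 difference over all tested starts was -0.13.

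The ends of some peaks coincided with the restriction sites used to cut the DNA before the pulldown, which bears on how far covered length follows an R-loop. The nucleic acids were digested with BsrGI, EcoRI, HindIII, SspI and XbaI. The member promoter windows hold 27 sites of these enzymes, and at 2 of them peaks began exactly at the cut. These stretches of the plus strand are shown with the site in capitals, at chr5:141382525-141382584 for PCDHGA7 (XbaI, TCTAGA) and chr5:141417479-141417538 for PCDHGB7 (SspI, AATATT).
PCDHGA7: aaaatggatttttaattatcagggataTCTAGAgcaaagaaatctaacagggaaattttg
PCDHGB7: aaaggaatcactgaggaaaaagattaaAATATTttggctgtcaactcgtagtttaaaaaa
At PCDHGA7 the peaks of shT2 replicates 1 and 3 began after base 141382552, where XbaI cuts. At PCDHGB7 the peaks of shT2 replicates 1 and 2 and shNC3 replicate 3 began after base 141417508, where SspI cuts. Over all promoter windows, 9.82% of 8717 distinct peak edges lay within 3 bases of the middle of such a site, against 0.528% of all positions. Of the 192 edges of the 96 cluster peaks, 31.8% fell on a base shared exactly with another sample, and 35.1% did so over all peaks. The last base 141493380 and the first base 141513592 were shared by all 6 samples. Regions behind the calls had shared edges too. The PCDHB3 peak began at 141100192 and the region at the PCDHGC3 start at 141474366 in the 3 shT2 samples. The longest region began at 141504045 in 5 samples. Genome sequence outside the promoter windows was not used here, so those edges were not compared with cut sites.

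Genes that act with the clustered protocadherins were examined in the same gene fit, as counts beside the 51.4% called over all genes. The non-clustered protocadherins and related large cadherins lie outside the clusters and have promoters of their own. Of 16, 8 were tested, 1 rose, 6 fell and 1 did not pass, with a median log2 difference of -0.71. FAT1, a giant cadherin, had 0 bp in each shT2 replicate and 2606, 2654 and 2796 bp in shNC3 (limma adjusted p = 7.18e-05). PCDH15, a protocadherin of inner-ear hair cells, had 0 bp in each shT2 replicate and 2866, 1740 and 1362 bp in shNC3 (adjusted p = 0.000435). FAT1 and PCDH15 met the coverage filter only through shNC3, so these p-values add no separate support to that pattern. PCDH9 had 320, 500 and 359 bp in shT2 and 1316, 1715 and 1043 bp in shNC3, a difference of -1.14 (SE 0.25, limma adjusted p = 0.00700). With peaks of −log10 q of at least 5 the PCDH9 difference was -0.53 and did not pass (limma adjusted p = 0.386). CELSR1, a cadherin of planar cell polarity, differed by -1.28 (SE 0.30, limma adjusted p = 0.0101), but by 0.02 with 5-fold peaks (adjusted p = 0.968) and by -0.44 with −log10 q of at least 5 (adjusted p = 0.168). PCDH1 rose by 0.95 (SE 0.30, adjusted p = 0.0335), a call lost in 9 settings, where its adjusted p was 0.0501 to 0.626 (0.1 with equal depth). CELSR3, counted among the 6 that fell, did not pass with equal depth (limma adjusted p = 0.117) or without scaling (-0.0, adjusted p = 0.95). It also did not pass with 5-fold peaks (0.652), equal peak number (0.0936) or the replicate block (0.078). CELSR2, also among the 6, did not pass without scaling (-0.13, limma adjusted p = 0.417). Its call was also lost without shT2 replicate 1 (0.0594), shT2 replicate 3 (0.0573) or shNC3 replicate 1 (0.0517). PCDH10 and 6 others had no peak in any sample.

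Among 20 factors for protocadherin promoter choice and silencing, 19 were tested, 6 rose, 1 fell and 12 did not pass, with a median of 0.15. CTCF, which loops the chosen promoters to their enhancers, had 14393, 16117 and 17089 bp in shT2 and 9877, 6512 and 9227 bp in shNC3, a difference of 0.72 (SE 0.12, limma adjusted p = 0.00243). The cohesin regulator PDS5A rose by 0.58 (SE 0.10, adjusted p = 0.00327) and the cohesin loader NIPBL by 0.58 (SE 0.12, adjusted p = 0.0061; 0.0682 with 5-fold peaks). TRIM28, a corepressor, rose by 0.98 (SE 0.23, adjusted p = 0.00968). The TRIM28 call was lost with equal depth or equal peak number (0.79, limma adjusted p = 0.0506 in both), with 5-fold peaks (adjusted p = 0.108) and with −log10 q of at least 5 (0.0728). SMCHD1, a silencer of the protocadherin clusters, had 1503, 1849 and 1329 bp in shT2 and 448, 389 and 726 bp in shNC3, a difference of 0.92 (SE 0.23, limma adjusted p = 0.0121). The SMCHD1 call was lost with equal depth (0.64, limma adjusted p = 0.158), with −log10 q of at least 5 (0.0786) and without shT2 replicate 2 (0.055). The cohesin subunits RAD21, SMC1A and SMC3 gave 0.39, 0.05 and 0.30 and did not pass.

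Among 15 signalling and processing partners, 14 were tested, 7 rose, 2 fell and 5 did not pass, with a median of 0.55. PRKCA, a protein kinase C, had 74385, 67996 and 60568 bp in shT2 and 22181, 15843 and 17760 bp in shNC3, a difference of 1.69 (SE 0.10, limma adjusted p = 3.12e-05). WASF1 and ABI2, subunits of the WAVE complex that builds branched actin, rose by 1.21 (SE 0.18, adjusted p = 0.00131) and 0.67 (SE 0.14, adjusted p = 0.00543), while NCKAP1 of the same complex fell by 0.78 (SE 0.20, adjusted p = 0.015; 0.0512 without shT2 replicate 3). RET, a receptor tyrosine kinase that binds protocadherins, had 27172, 25865 and 25412 bp in shT2 and 33117, 27993 and 31924 bp in shNC3, a difference of -0.39 (SE 0.05, limma adjusted p = 0.000729). CYFIP1, counted among the 7, did not pass with equal depth (limma adjusted p = 0.0836). Nor did it pass without scaling (0.0568), with a 100 bp pseudocount (0.0521), equal peak number (0.106) or no flank (0.0714). Its call was also lost without shT2 replicate 1 (0.105), shT2 replicate 2 (0.0971), shNC3 replicate 2 (0.117) or shNC3 replicate 3 (0.0961).

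The 24 other protein-coding genes between the clusters or within 300 kb of them show the surroundings. Of these, 21 were tested, 2 rose, 5 fell and 14 did not pass, with a median of -0.17. IK, a spliceosome component, rose by 1.35 (SE 0.27, limma adjusted p = 0.00545), but by 0.70 with 5-fold peaks, which did not pass (adjusted p = 0.09). WDR55 and FCHSD1 fell by 0.40 (SE 0.06, adjusted p = 0.00108) and 0.45 (SE 0.07, adjusted p = 0.0016), and SLC35A4 fell by 0.61 (SE 0.11, adjusted p = 0.00323) with the same bases as LOC131768270. With 5-fold peaks WDR55 (limma adjusted p = 0.0507) and FCHSD1 (0.0809) did not pass. The genes nearest the clusters did not pass in the fit as described, though each with a peak passed in some other setting. ZMAT2, before the alpha cluster, had 5156, 4398 and 4300 bp in shT2 and 2655, 599 and 3355 bp in shNC3, without overlap (log2 difference 0.98, limma adjusted p = 0.087; 0.0285 with the replicate number as a block, 0.0314 with a 5 kb flank and 0.0255 without shNC3 replicate 3). TAF7, between the beta and gamma clusters, had 2033, 2751 and 2380 bp in shT2 and 1241, 2127 and 1044 bp in shNC3 (limma adjusted p = 0.169; 0.0348 with 5-fold peaks and 0.0245 without shNC3 replicate 2). DIAPH1, after the gamma cluster, had 5142, 4688 and 4101 bp in shT2 and 4790, 3024 and 3147 bp in shNC3 (limma adjusted p = 0.332; 0.0286 with 5-fold peaks). SLC25A2 had no peak in any sample.

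**Figure D4:**
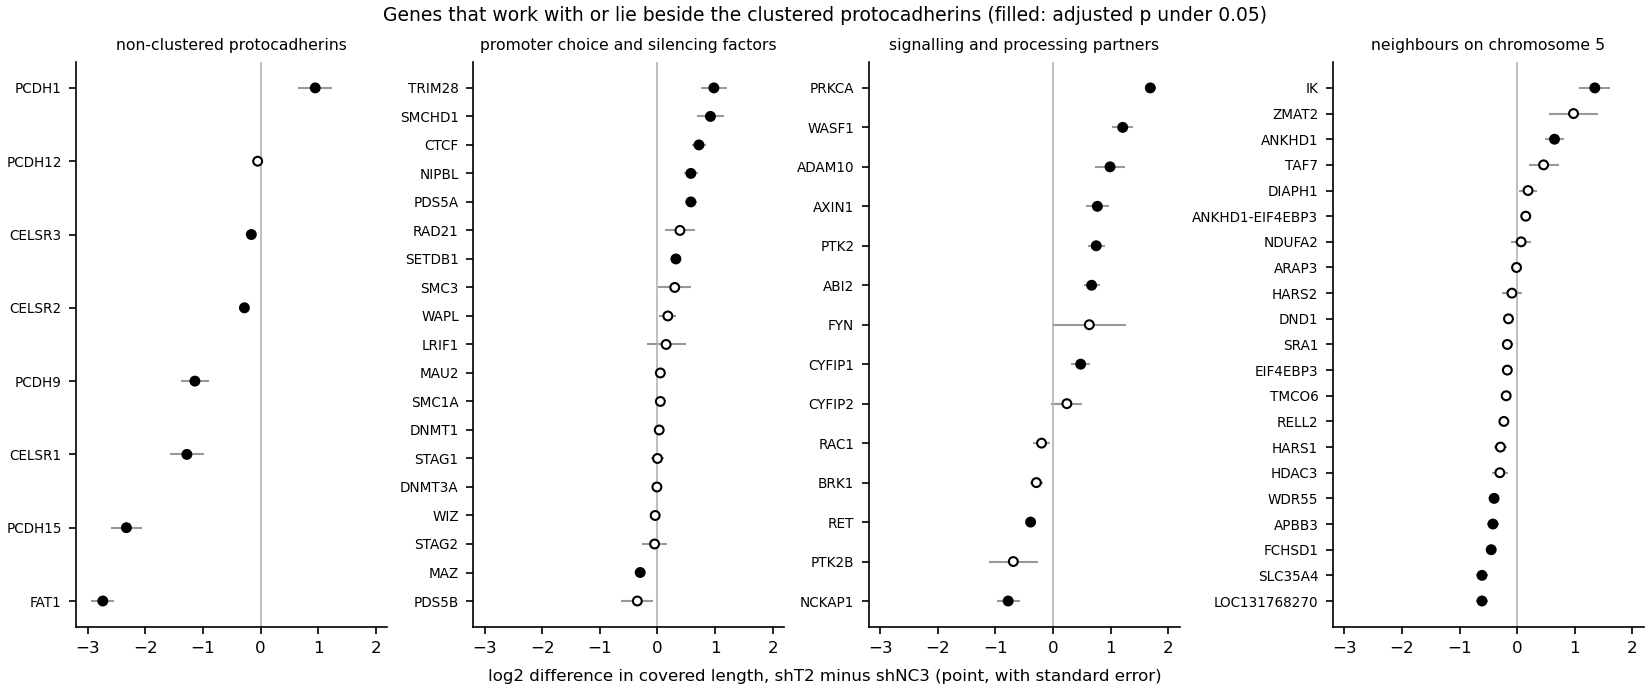
Log2 difference in covered length, shT2 minus shNC3 (horizontal axis, point with standard error), for the tested genes of the 4 lists, with filled points where the limma adjusted p was under 0.05. The non-clustered protocadherins run from -2.74 at FAT1, which had no peak in shT2, to 0.95 at PCDH1, and the signalling partners reach 1.69 at PRKCA.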

How the data were processed

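Each of the 6 samples has 1 deposited list of narrow peaks. Alignment to hg38 and peak calling involved Bowtie2 (version 2.4.4), SAMtools and MACS2 (version 2.2.6), per the submitters' processing notes. The sources used here do not name the control used for calling. Per the authors' deposited lists, each peak has an integer score, a fold enrichment (a linear ratio over local background) and −log10 p-value and q-value. The deposited peak positions were used as intervals, and other columns only to rank or filter within a list and to recover depth, which was possible for 99.8 to 99.9% of peaks within 0.001 of their deposited values.

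Covered base pairs were summed in gene spans plus 2 kb, in windows of 1 kb each side of 15848 gene starts and in 5 kb tiles. Values were scaled to the mean total covered length. For log2(scaled bp + 500), lmFit and eBayes of limma 3.58.1 (trend and robust; R 4.3.3) were run over features covered in at least 3 samples, with Benjamini-Hochberg adjustment over all of them and a threshold of 0.05. Log2 differences understate changes of short coverage. Strand came from the promoter table, and the 6 members without an entry were placed on the plus strand like the rest. Single values were compared with exact permutation tests (scipy 1.17.1). The fits were tested on simulated data with normal noise. Log2 changes of 0.5 were recovered for 64.2% of changed genes, 74.6% of starts and 16.4% of tiles. For changes of 1 the shares were 92.5%, 85.1% and 58.2%. A tile that did not pass may therefore still differ.

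Named genes were the 12 members per direction with the largest differences, the first and last gene of each cluster, the C-type members, up to 4 genes per list with the smallest p, CTCF, SMCHD1, PCDH10 and RET, and the neighbours nearest to the clusters; others (such as the remaining members with a peak) were named after their values were seen. The members and lists were chosen with earlier results of these data known. Alternatives changed the scaling, pseudocount, peak threshold, filter, windows, tile size and the samples used. A gene of the signalling list is not reported here. Exons and genome sequence were not used here.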

Additional observations from a re-analysis of the deposited data

How the results depend on the processing

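The count of protocadherin genes higher in shT2 was 21 to 24 with a sample left out and 23 or 24 in all other settings, and 0 were lower throughout. PCDHB2 and PCDHB3 dropped out by the coverage filter when an shT2 replicate was left out. With features covered in 2 samples, a setting chosen after seeing the data, their gene calls held (limma adjusted p up to 0.048). PCDHB2 and PCDHB3 entered those fits through shT2 samples alone. A total of 1 start was called; with a sample left out 0 to 1, and with 2 kb windows 2. Tiles called higher numbered 3 with a 100 bp pseudocount, 1 with 5-fold peaks, 3 without the filter, 1 with 2 kb tiles, and 0 to 3 with a sample left out; tiles called lower were 0 to 1. With the replicate block 1 tile was called, and 24 genes. The tile left with 5-fold peaks or with the block was that of PCDHB3, tested only through shT2. Same-numbered samples did not deviate together (correlations -0.064 to -0.008). This gives no sign that the numbers pair the samples, but it cannot show that same-numbered samples were handled apart.

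The alpha length difference reversed with 5-fold peaks (-0.15 kb). With a sample left out the differences were 0.16 to 0.927 kb for alpha, 1.27 to 2.05 kb for beta and 3.63 to 5.20 kb for gamma. The difference in mean number of starts with a peak fell to 0 for beta when at least 50% of the window had to be covered and to 0 for gamma with 5-fold peaks. Without scaling the median over all genes was 0.06, 60.7% of all calls were higher instead of 47.0%, and ARAP3 reversed to 0.15; CELSR1 reversed to 0.02 with 5-fold peaks.

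Non-clustered protocadherins higher were 0 with a 100 bp pseudocount, 5-fold peaks, −log10 q of at least 5, equal peak number, equal depth or a 5 kb flank, and 0 to 1 with a sample left out; those lower were 3 with 5-fold peaks and 3 to 5 with a sample left out. Signalling partners higher were 4 with 5-fold peaks and 5 to 7 with a sample left out, and lower 1 to 3. Neighbours higher were 4 without scaling, 1 with −log10 q of at least 5 and 1 to 3 with a sample left out; neighbours lower were 3 with 5-fold peaks, 10 with −log10 q of at least 5 and 9 with a 5 kb flank. The causes were not tested. Depth limits what a missing peak in shNC3 can show.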
